A study of Mus musculus with 10 samples.

Results

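The 9 genes described here were grouped as beta-adrenergic, cyclic AMP (cAMP) and PGC-1 response genes. Most act in the response of muscle to adrenaline through cAMP. *Ppargc1a* and *Ppargc1b* encode PGC-1 coactivators, and *Doc2b* encodes a calcium sensor of vesicle fusion. The 9 genes are *Ppargc1a*, *Ppargc1b*, *Sik1*, *Crem*, *Pde4b*, *Pde4d*, *Rgs2*, *Crtc2* and *Doc2b*, taken by gene symbol from a count table of 24421 rows. All 9 were found, and all 9 were among the 13180 genes with enough reads to test. Calf muscle (gastrocnemius and plantaris together) came from 10 male C57BL/6 mice aged 12 weeks. The ethanol group (mice 51, 57, 59, 60 and 62) was given ethanol at 3 g/kg into the peritoneum, and the saline group (mice 32, 34, 36, 38 and 39) an equal volume of 0.9% saline. Mice of both groups were housed singly, had been fasted for about 16 h, stayed fasted, and were dissected under isoflurane 1 h after the injection, so the controls were also fasted, injected and anaesthetised. Each library is 1 mouse, and the labels name no batch or pairing.

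Adrenaline and noradrenaline bind beta-adrenergic receptors, which act through the G protein Gs to make adenylyl cyclase produce cAMP. cAMP releases protein kinase A, which phosphorylates the transcription factor CREB, while CREB coactivators of the CRTC family enter the nucleus when salt-inducible kinases (SIK) are held in check. In skeletal muscle, beta-agonists are known to act this way on the gene of PGC-1 alpha, a coactivator of mitochondrial and oxidative genes. Several products of the target genes (phosphodiesterases, the ICER form of CREM, SIK1 and RGS2) damp the signal again.

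The CREB binding element is the palindrome TGACGTCA, and its core TGACG can occur alone. RefSeq promoters of build GRCm38.p6, reaching from 250 bases before to 50 after an annotated start, could be matched to 4 of the 9 genes (7 promoters: 4 of *Pde4b* and 1 each of *Ppargc1a*, *Pde4d* and *Rgs2*). The sequences are shown for the promoters that hold the core, which were 3 of the 7, with the core in capitals on whichever strand it was found (CGTCA is its reverse complement). They run 5′ to 3′ along the gene. The *Ppargc1a* window is chr5:51567676-51567975 (minus strand), with the core at position -49 from the start. The *Rgs2* window is chr1:144004100-144004399 (minus strand), with cores at -185 and -67. The first *Pde4b* window is chr4:102421305-102421604 (plus strand), with a core at -34.
Ppargc1a: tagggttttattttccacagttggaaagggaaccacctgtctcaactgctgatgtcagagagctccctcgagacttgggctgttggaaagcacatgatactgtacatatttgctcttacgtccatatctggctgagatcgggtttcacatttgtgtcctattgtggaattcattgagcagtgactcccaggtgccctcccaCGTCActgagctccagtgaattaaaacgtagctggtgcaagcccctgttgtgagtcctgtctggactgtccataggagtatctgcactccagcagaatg
Rgs2: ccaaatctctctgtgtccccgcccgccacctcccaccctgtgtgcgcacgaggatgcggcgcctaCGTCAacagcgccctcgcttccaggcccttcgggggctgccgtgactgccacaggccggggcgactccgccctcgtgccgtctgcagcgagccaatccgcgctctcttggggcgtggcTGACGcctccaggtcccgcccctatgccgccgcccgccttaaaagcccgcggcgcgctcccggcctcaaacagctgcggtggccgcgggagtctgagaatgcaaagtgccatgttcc
Pde4b, first promoter: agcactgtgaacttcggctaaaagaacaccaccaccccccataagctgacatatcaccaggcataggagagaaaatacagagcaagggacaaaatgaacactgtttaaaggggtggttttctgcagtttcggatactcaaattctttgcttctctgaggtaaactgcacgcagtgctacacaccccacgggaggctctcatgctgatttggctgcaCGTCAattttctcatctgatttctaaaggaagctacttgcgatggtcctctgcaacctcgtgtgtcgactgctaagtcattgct
Of all 32851 promoters of this length, 19.5% held the core outside a full element on either strand and 1.79% held TGACGTCA, which none of the 7 did. The clock E-box CACGTG was in 0 of the 7 and in 7.15% of all promoters. A match is a run of letters and not a measured binding site.

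Libraries held 20.3 to 31.3 M counts in the ethanol group and 32.0 to 42.7 M in the saline group, so depth and treatment cannot be told apart. The tissue markers fitted the label: the 11 skeletal fibre markers summed to 136200 to 164700 CPM in ethanol and 129800 to 161500 CPM in saline libraries. Levels are in CPM, a share of the counts of a library on a fixed scale, after TMM, a correction for differences in library composition. The smallest count behind a value of the 9 genes was 34 (*Doc2b* in ethanol 59) and the largest 17770 (*Pde4d* in saline 36). In bulk tissue, fewer cells of a type and less RNA per cell cannot be told apart.

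The comparison of ethanol with saline asked which of these transcripts stood at another level 1 h after the dose. None of the 9 genes passed a false discovery rate (FDR) of 0.05 in edgeR's quasi-likelihood test, which called 0% of the genes tested (smallest FDR 0.214). At an unadjusted p under 0.05 edgeR gave 0 of the 9, where the share over all genes was 12.1%. DESeq2 gave 1 of the 9 at an unadjusted p under 0.05 (*Rgs2*), against 9.65% of the genes it tested, and 0 at an adjusted p under 0.05, against 0.468%. In limma-voom 0 of the 9 were at an unadjusted p under 0.05, against 12.3% of genes, and 0 at FDR 0.05, against 0% of genes. The CPM values of the groups overlapped for all 9 genes, and were apart for 2.18% of all genes. Of the 9 log2 fold changes (ethanol minus saline) 6 were below 0, where 49.8% of all genes were, and the median was -0.11, against 0.00096 over all genes. The size of the values still differed widely between genes, from -1.32 for *Doc2b* to 0.52 for *Ppargc1b*, and the widest intervals belonged to *Doc2b*, *Rgs2* and *Sik1*.

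**Figure D1:**
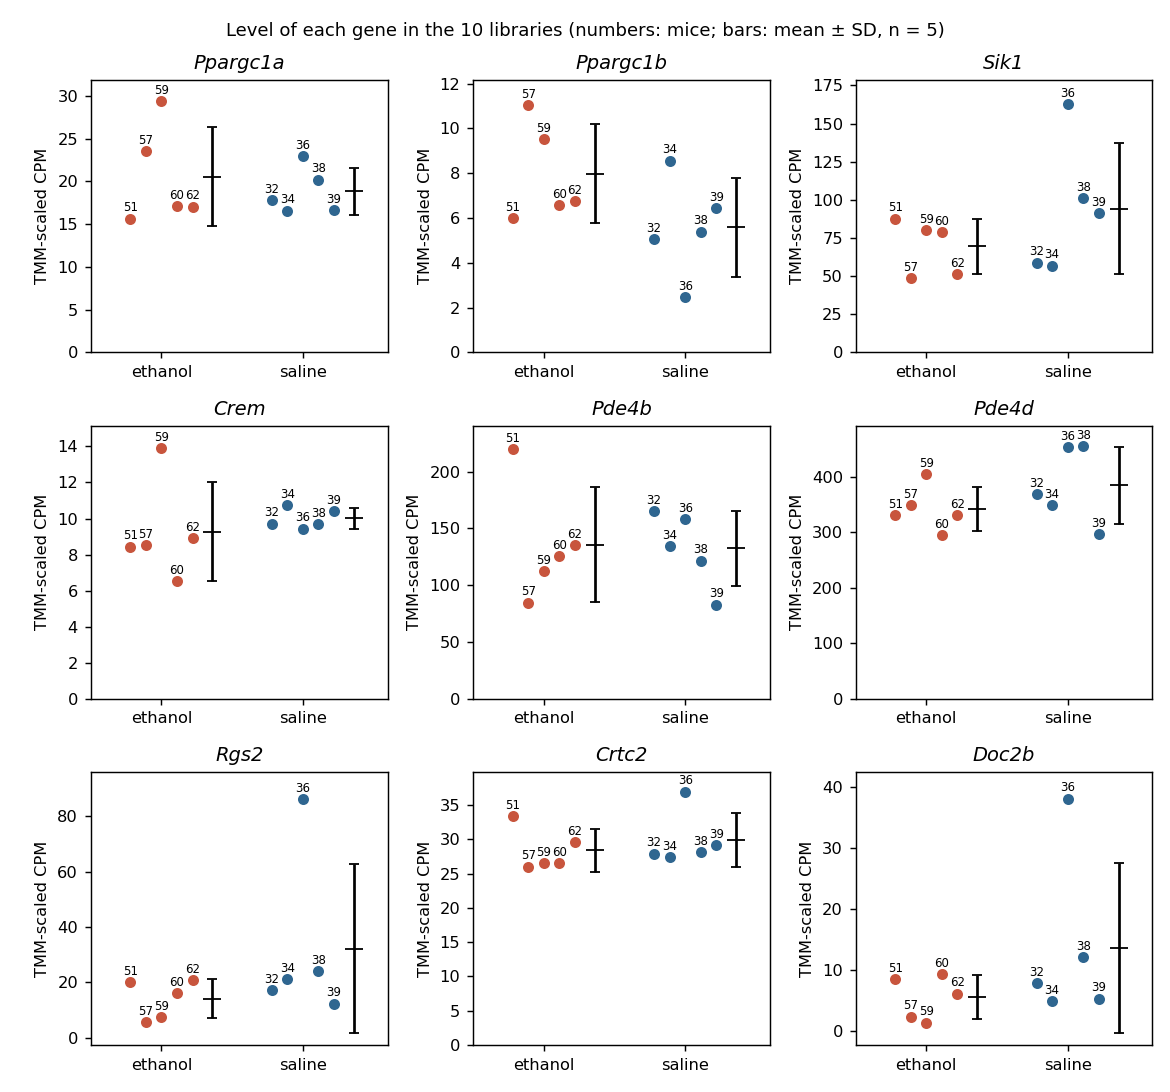
Level of each gene in TMM-scaled CPM (linear axis), ethanol libraries left and saline libraries right, with the mouse number at each point and the mean ± SD (n = 5) as a bar. Saline 36 stands at 86.2 CPM of *Rgs2* and 38.1 CPM of *Doc2b*, above the other 9 libraries, and at 2.46 CPM of *Ppargc1b*, below them.

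Per kilobase of exon (union of GENCODE M21 exons), *Pde4d* had the highest level in both groups, at 28.5 ± 3.33 CPM per kb in ethanol and 32.1 ± 5.77 in saline (SD, n = 5 each). *Sik1* and *Pde4b* came next, at 13.5 ± 3.49 and 12.8 ± 4.81 CPM per kb in ethanol, and did not differ beyond their spread. In ethanol the order went on with *Crtc2* (6.94 ± 0.76), *Rgs2* (3.86 ± 1.93), *Ppargc1a* (3.12 ± 0.88), *Ppargc1b* (2.0 ± 0.55), *Crem* (1.57 ± 0.47) and *Doc2b* (1.26 ± 0.82), all in CPM per kb. The ranges of neighbours in that order overlapped except for *Pde4d* above *Sik1* and *Crtc2* above *Rgs2*. In saline the last place was that of *Ppargc1b*, at 1.40 ± 0.56 CPM per kb, and *Ppargc1a* (2.85 ± 0.41) stood apart from *Crem* (1.70 ± 0.09).

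*Rgs2* (GRCm38 chromosome 1, 143999338 to 144004161) encodes a regulator of G protein signalling that shuts off Gq and also restrains adenylyl cyclase. It stood at 20.1, 5.73, 7.50, 16.0 and 20.7 CPM in ethanol 51, 57, 59, 60 and 62, against 17.1, 21.1, 86.2, 24 and 12.3 CPM in saline 32, 34, 36, 38 and 39. All 5 ethanol libraries lay below the saline median of 21.1 CPM, but 3 of them lay within the saline range. The log2 fold change was -1.20 ± 0.61 (SE; 95% interval -2.58 to 0.18; edgeR FDR = 0.462), with an adjusted p = 0.361 in DESeq2. Saline 36 held 3.59 times the next highest library, and leaving that mouse out gave -0.42 (log2, edgeR FDR = 0.759).

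The phosphodiesterase genes *Pde4b* (chromosome 4, 102087543 to 102607259) and *Pde4d* (chromosome 13, 108449948 to 109953461) encode enzymes that break down cAMP. *Pde4b* stood at 219.7, 84.5, 112, 125 and 135 CPM in ethanol 51, 57, 59, 60 and 62, against 165, 134, 158, 121 and 82.9 CPM in saline 32, 34, 36, 38 and 39. Ethanol 51 was above every other library, while ethanol 57 and saline 39 were alike at the bottom. The log2 fold change was 0.03 ± 0.26 (SE; 95% interval -0.55 to 0.61), and it was -0.21 without ethanol 51 and -0.09 without saline 39. *Pde4d* stood at 331, 349, 405, 296 and 331 CPM in ethanol 51, 57, 59, 60 and 62, against 369, 349, 454, 456 and 297 CPM in saline 32, 34, 36, 38 and 39. Its groups overlapped over most of their range, with saline 36 and saline 38 on top (log2 fold change -0.17 ± 0.12, SE; 95% interval -0.43 to 0.09). Counts per gene do not separate the long and short PDE4 forms.

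*Sik1*, *Crtc2* and *Crem* make up the CREB arm. *Sik1* (chromosome 17, 31844250 to 31855804), the kinase that is itself a CREB target and phosphorylates CRTC proteins, stood at 87.8, 48.9, 80.4, 78.8 and 51.5 CPM in ethanol 51, 57, 59, 60 and 62. In saline 32, 34, 36, 38 and 39 it stood at 58.9, 56.9, 163, 100.9 and 91.5 CPM. All ethanol libraries lay below the saline median of 91.5 CPM, and 2 lay below every saline library. *Sik1* had a log2 fold change of -0.44 ± 0.31 (SE; 95% interval -1.13 to 0.25; edgeR FDR = 0.584), or -0.16 without saline 36.

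*Crtc2* (chromosome 3, 90254163 to 90264125), a coactivator that SIK kinases keep in the cytoplasm, varied least of the 9 genes among ethanol libraries, at 33.4, 26.03, 26.5, 26.6 and 29.6 CPM in ethanol 51, 57, 59, 60 and 62. In saline 32, 34, 36, 38 and 39 it stood at 27.9, 27.4, 37.0, 28.1 and 29.2 CPM. Saline 36 and ethanol 51 were the highest, and the other 8 libraries lay between 26.03 and 29.6 CPM. Its log2 fold change was -0.07 ± 0.10 (SE; 95% interval -0.29 to 0.14), and 0.006 without saline 36.

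*Crem* (chromosome 18, 3266048 to 3337748) encodes the cAMP response element modulator, whose internal promoter makes the repressor ICER, which counts per gene do not separate. It stood at 8.44, 8.54, 13.9, 6.52 and 8.92 CPM in ethanol 51, 57, 59, 60 and 62, against 9.72, 10.8, 9.44, 9.68 and 10.4 CPM in saline 32, 34, 36, 38 and 39. Of the ethanol libraries 4 lay below every saline library and ethanol 59 lay above all. The coefficient of variation was 29.7% in ethanol and 5.56% in saline. The log2 fold change was -0.11 ± 0.15 (SE; 95% interval -0.44 to 0.22; edgeR FDR = 0.812), and without ethanol 59 it was -0.30 (edgeR FDR = 0.401). In GENCODE M21 an exon of *Crem* overlaps 1 gene on the other strand, and the strand setting of the counts is not given in the sources used here.

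*Ppargc1a* (chromosome 5, 51454250 to 51567726) encodes PGC-1 alpha. It stood at 15.6, 23.5, 29.3, 17.1 and 17.0 CPM in ethanol 51, 57, 59, 60 and 62, against 17.8, 16.6, 22.9, 20.2 and 16.6 CPM in saline 32, 34, 36, 38 and 39. Ethanol 59 and ethanol 57 were the highest of the 10 libraries, and the other 3 ethanol libraries lay at or under the saline median. The log2 fold change was 0.13 ± 0.17 (SE; 95% interval -0.24 to 0.49; edgeR FDR = 0.797), and -0.04 without ethanol 59. The interval leaves room for a level 0.49 log2 units above saline, and counts per gene do not tell the PGC-1 alpha start sites apart.

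Its relative *Ppargc1b* (chromosome 18, 61298136 to 61400431) encodes PGC-1 beta, a coactivator of oxidative and lipid genes that is not known for acute induction by exercise. It stood at 5.99, 11.1, 9.53, 6.57 and 6.75 CPM in ethanol 51, 57, 59, 60 and 62, against 5.06, 8.56, 2.46, 5.39 and 6.45 CPM in saline 32, 34, 36, 38 and 39. All 5 ethanol libraries lay above the saline median of 5.39 CPM, and ethanol 57 and 59 lay above every saline library. Its log2 fold change was 0.52 ± 0.29 (SE; 95% interval -0.12 to 1.16; edgeR FDR = 0.491). It was 0.32 without saline 36, which held the lowest value, and 0.73 without saline 34 (edgeR FDR = 0.284).

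*Doc2b* (chromosome 11, 75768966 to 75796049) encodes a calcium sensor of vesicle fusion that promotes delivery of the glucose transporter GLUT4 to the muscle cell surface. It stood at 8.47, 2.31, 1.33, 9.31 and 6.06 CPM in ethanol 51, 57, 59, 60 and 62, against 7.75, 4.79, 38.1, 12.0 and 5.25 CPM in saline 32, 34, 36, 38 and 39. Saline 36 held 3.17 times the next highest library, and ethanol 57 and 59 held the lowest values, from 69 and 34 counts. *Doc2b* had a log2 fold change of -1.32 ± 0.73 (SE; 95% interval -2.96 to 0.33; edgeR FDR = 0.492), and -0.45 without saline 36. Its exons overlap 1 gene on the other strand.

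**Figure D2:**
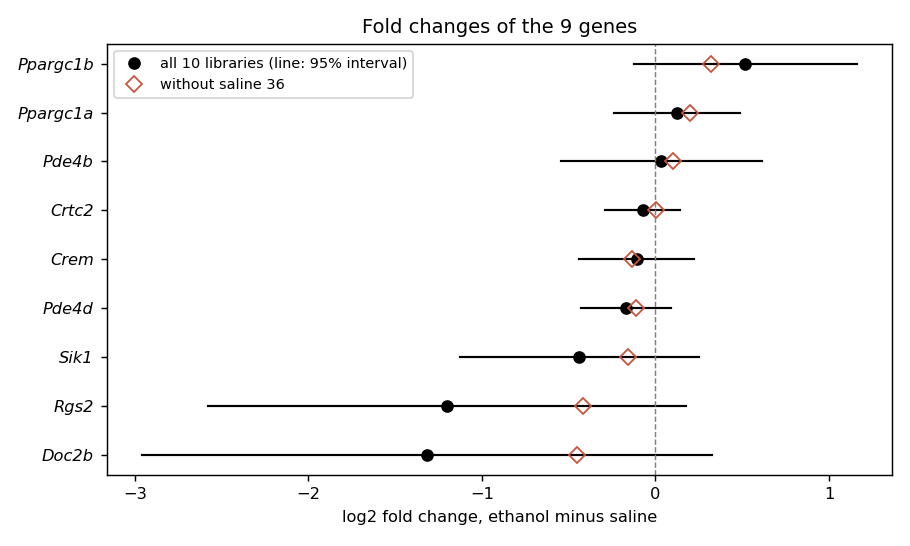
Log2 fold change, ethanol minus saline, of each gene with its 95% interval over all 10 libraries (filled circles and lines), and the same without saline 36 (open diamonds). Every interval includes 0, and without saline 36 *Rgs2* and *Doc2b* stand at -0.42 and -0.45.

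Single mice held the extreme values of several of these genes. Saline 36 held the highest CPM of 4 of the 9 genes (*Sik1*, *Rgs2*, *Crtc2* and *Doc2b*), where it was highest for 17.9% of all genes. It held the lowest of 1 (*Ppargc1b*), where it was lowest for 16.6% of all genes. It was at 2 times the next highest library or more for *Rgs2* and *Doc2b*, as for 0.266% of all genes tested. Without saline 36 the count of the 9 genes at an unadjusted p under 0.05 was 0, against 10.1% of genes. *Fos*, the immediate early gene that cAMP and contraction induce, did not share this pattern: it stood highest in saline 38 and saline 39, at 307 and 188 CPM, and at 94.4 CPM in saline 36, with 38.2 to 78.7 CPM over the ethanol libraries. In the ethanol group, mice 57 and 59 held the 2 lowest values of *Rgs2* and *Doc2b* and the 2 highest of *Ppargc1a* and *Ppargc1b*.

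**Figure D3:**
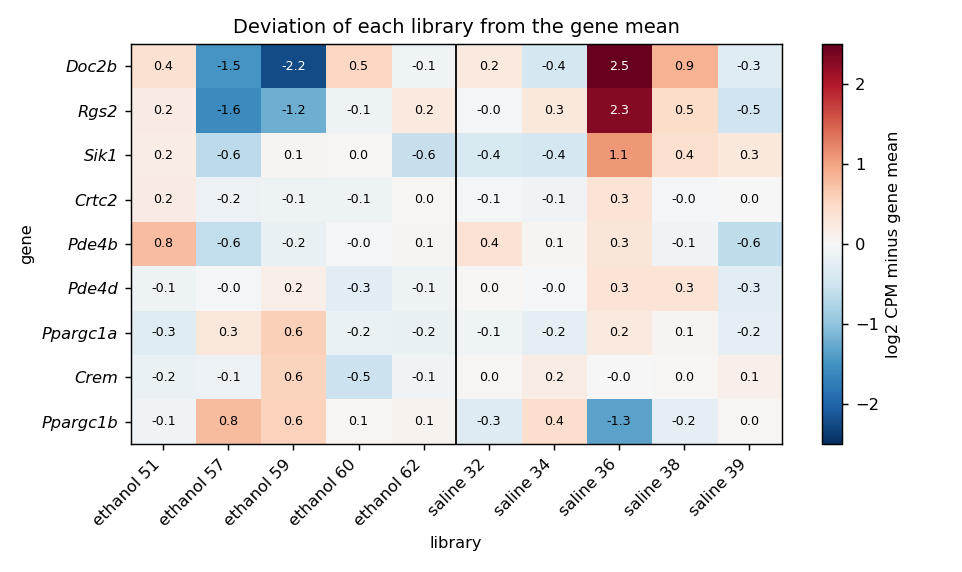
Log2 CPM of each gene in each library minus the mean of the gene over the 10 libraries (colour and printed value), ethanol libraries left of the line and saline libraries right of it. Saline 36 and ethanol 57 and 59 lie at opposite ends for *Doc2b*, *Rgs2* and *Ppargc1b*.

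Correlations of log2 CPM over the 10 libraries were computed for the 36 pairs of the 9 genes, and 22 were positive. By a two-sided permutation test adjusted over the 36 pairs, 5 passed 0.05 for Pearson's r and 0 for Spearman's rho. The share of pairs passing among all tested genes was not computed, so 5 of 36 cannot be read as particular to the 9 genes. *Ppargc1b* ran against *Doc2b* (r = -0.925, permutation p = 0.00036, adjusted p = 0.0130; rho = -0.842, permutation p = 0.00389, adjusted p = 0.140). *Rgs2* ran with *Doc2b* (r = 0.921, permutation p = 0.00098, adjusted p = 0.0176; rho = 0.697, permutation p = 0.0321, adjusted p = 0.246). *Ppargc1b* ran against *Rgs2* (r = -0.905, permutation p = 0.00168, adjusted p = 0.0202; rho = -0.624, permutation p = 0.0601, adjusted p = 0.268). Relative to the group means the r of these pairs were -0.902, 0.897 and -0.873. The permutations shuffled all 10 libraries without regard to group, so the permutation p-values do not test association within groups. Without saline 36 and ethanol 57, the libraries farthest from the median on the first gene of each pair, r was -0.838 for *Ppargc1b* and *Doc2b*, 0.836 for *Rgs2* and *Doc2b* and -0.558 for *Ppargc1b* and *Rgs2*. With ethanol 59 left out as well, r over the other 7 libraries was -0.701, 0.363 and 0.023. These 3 libraries hold the ends of the range, and leaving out the ends lowers r by construction. The remaining pairs that passed, *Ppargc1b* with *Crtc2* (r = -0.815, permutation p = 0.00503, adjusted p = 0.0362; rho = -0.721, permutation p = 0.0238, adjusted p = 0.246) and *Rgs2* with *Crtc2* (r = 0.807, permutation p = 0.00401, adjusted p = 0.0361; rho = 0.685, permutation p = 0.0341, adjusted p = 0.246), had r of -0.386 and 0.390 without saline 36 and ethanol 57. Saline 36 and ethanol 57 hold the ends of the range of *Ppargc1b* and *Rgs2*, so these lower r cannot decide whether the pairs hold. *Ppargc1a* and *Ppargc1b* had r = 0.110 (permutation p = 0.747, adjusted p = 0.791) and rho = 0.139 (permutation p = 0.709, adjusted p = 0.881), with r = 0.605 without saline 36, -0.852 without ethanol 59 and ethanol 57, and -0.492 without all 3. The sign of r for this pair thus turned with the mice left out.

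**Figure D4:**
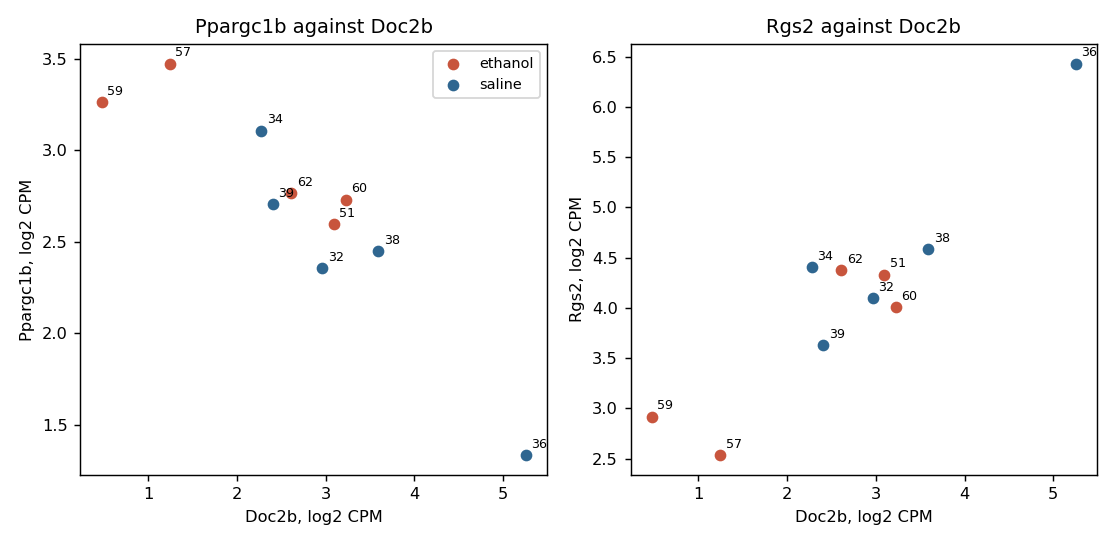
Log2 CPM of *Ppargc1b* (left) and *Rgs2* (right) against that of *Doc2b* in the 10 libraries, ethanol and saline in separate colours, with mouse numbers. Saline 36 lies at one end and ethanol 57 and 59 at the other, and r over all libraries is -0.925 on the left and 0.921 on the right.

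The genes most like each of the 9 were sought among all tested genes by Pearson's r of log2 CPM over the 10 libraries, as a description. For *Doc2b* they were *Sesn1*, a sestrin that restrains mTORC1 (r = 0.990, rho = 0.952), *Thrap3*, an RNA-processing factor (r = 0.988, rho = 0.988), and *Glul*, glutamine synthetase (r = 0.986, rho = 0.952). Without saline 36 and ethanol 59 their r were 0.979, 0.976 and 0.942. For *Rgs2* the closest was *G3bp1*, a stress granule protein (r = 0.970, or 0.886 without saline 36 and ethanol 57). For *Sik1* they were the AP-1 gene *Fosl2* (r = 0.950) and *Errfi1*, an inhibitor of the EGF receptor (r = 0.919), at 0.897 and 0.802 without those libraries. *Ppargc1a* was most like *Galnt1*, an enzyme that starts O-linked glycans (r = 0.955, or 0.954 without ethanol 59 and ethanol 57), and *Ppargc1b* most like *Oxnad1* (r = 0.983, or 0.938 without saline 36 and ethanol 57). *Pde4b* was closest to the monocarboxylate transporter gene *Slc16a9* (r = 0.925), *Pde4d* to *Tarsl2* (r = 0.948) and *Crtc2* to the F-box gene *Fbxo34* (r = 0.949). For *Crem* the closest, *Lrrc74b* (r = 0.930), came to 0.535 without ethanol 60 and ethanol 59. The first named for each gene had the highest of 13180 correlations over the same libraries.

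The rest of the pathway was described by 10 gene lists, in which 0 genes passed FDR 0.05 in edgeR. Over all genes 6.22% were at an unadjusted p under 0.05 and higher in ethanol and 5.91% were lower. Among the 8 tested adrenergic receptor genes 7 had positive log2 fold changes (median 0.22 over the 8). Of those 7, 0 were at an unadjusted p under 0.05. All 7 were at low levels, with group means from 0.34 CPM (*Adra1b* in saline) to 1.65 CPM (*Adra1d* in ethanol). The beta-3 receptor gene *Adrb3*, a receptor of fat cells, stood at 1.41 ± 1.5 CPM in ethanol and 0.55 ± 0.31 CPM in saline (SD, n = 5 each). Ethanol 60 held 4.07 CPM of it, and the log2 fold change was 1.31 ± 0.63 (SE; edgeR FDR = 0.438), or 0.46 without that library. *Adra2a*, the alpha-2A receptor gene, was at 0.58 ± 0.27 (log2 ± SE, edgeR FDR = 0.416), from 1.33 CPM in ethanol and 0.89 CPM in saline.

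Of 14 G protein and adenylyl cyclase genes 2 were at an unadjusted p under 0.05, both higher in ethanol. *Gnai2*, an inhibitory G protein subunit, stood at 84.2 ± 5.34 CPM in ethanol and 73.7 ± 3.52 CPM in saline (SD, n = 5 each; log2 fold change 0.19 ± 0.07, SE, edgeR FDR = 0.336). The cyclase gene *Adcy5* was at 0.40 ± 0.19 (log2 ± SE, edgeR FDR = 0.410; 0.24 without ethanol 60), and *Adcy6* at 0.15 ± 0.07 (edgeR FDR = 0.422). Among 14 protein kinase A and anchor genes 1 was higher at that p, the regulatory subunit gene *Prkar2b*, at 7.65 ± 5.22 CPM in ethanol and 3.39 ± 1.13 CPM in saline. Ethanol 60 held 16.7 CPM of it, and the log2 fold change of 1.16 ± 0.43 (SE, edgeR FDR = 0.364) came to 0.67 without that library. Of the 10 tested adipocyte markers all had positive log2 fold changes, 4 at an unadjusted p under 0.05 and 0 at FDR 0.05 in edgeR, and their summed level was 596 to 1386 CPM in ethanol libraries and 449 to 633 CPM in saline libraries. The brown fat marker *Ucp1* was at 0 in every saline library and at most at 0.189 CPM in ethanol. *Adrb3* is itself 1 of these markers, and the part of fat cells in these values was not tested. *Akap12* and *Prkar1a* were at 0.14 ± 0.07 and 0.13 ± 0.08 (log2 ± SE).

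Of 17 phosphodiesterase genes, *Pde4b* and *Pde4d* among them, 6 had positive and 11 negative log2 fold changes. At an unadjusted p under 0.05, 2 were higher and 0 lower. *Pde4a* stood at 15.5, 41.9, 42.0, 21.8 and 23.6 CPM in ethanol 51, 57, 59, 60 and 62, against 17.0, 21.2, 13.8, 21.4 and 17.6 CPM in saline 32, 34, 36, 38 and 39. Ethanol 57 and 59 stood highest here too, and the log2 fold change was 0.67 ± 0.28 (SE, edgeR FDR = 0.392). *Pde8b* was at 0.28 ± 0.12 (log2 ± SE, edgeR FDR = 0.402) and *Pde7a*, for which saline 36 held 263 CPM, at -0.42 ± 0.22 (edgeR FDR = 0.467; -0.18 without saline 36). Of 11 CREB, coactivator and SIK genes, *Sik1*, *Crem* and *Crtc2* among them, 9 had negative values. The median over all 11 was -0.15, or -0.14 without saline 36, which held the highest CPM of 5 of the 11 (17.9% over all genes). In this list 1 gene was higher and 1 lower at that p. These were *Crtc1*, at 11.8 ± 1.18 CPM in ethanol and 9.83 ± 0.92 in saline (log2 fold change 0.26 ± 0.10, SE, edgeR FDR = 0.348), and *Crebbp*, the acetyltransferase that CREB recruits, at 29.9 ± 5.39 CPM in ethanol and 38.8 ± 6.79 in saline (-0.37 ± 0.14, SE, edgeR FDR = 0.349). *Creb1* itself was at 0.02 ± 0.06 (log2 ± SE) and *Sik2* at -0.40 ± 0.20.

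**Figure D5:**
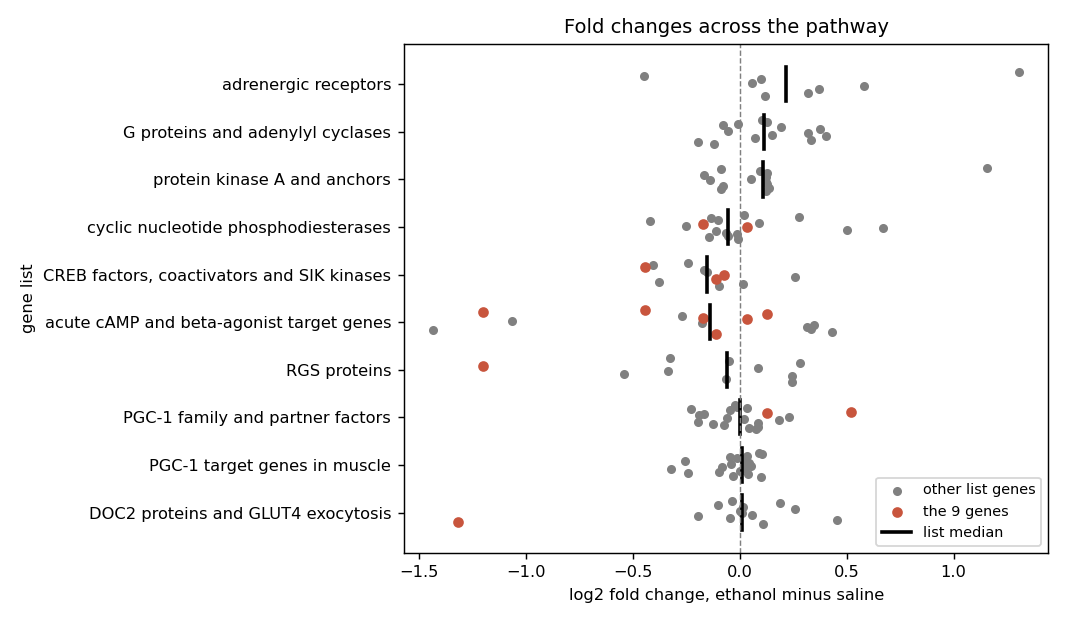
Log2 fold change, ethanol minus saline, of every tested gene of the 10 pathway lists (points, with the 9 genes coloured) and the median of each list (black line). The list medians lie between -0.15 and 0.22, and *Doc2b*, *Rgs2* and *Fos* lie farthest below 0.

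Of 14 acute cAMP and beta-agonist target genes, 6 of them among the 9, 6 had positive and 8 negative log2 fold changes. Only *Fos* was at an unadjusted p under 0.05 (-1.43 ± 0.49, log2 ± SE, edgeR FDR = 0.341; -0.95 without saline 38). The orphan receptor genes of the same response had values of either sign, 0.35 ± 0.40 for *Nr4a1* and -1.06 ± 0.62 for *Nr4a3* (log2 ± SE), and the clock gene *Per1* was at -0.27 ± 0.18. The small GTPase gene *Gem* was at 0.34 ± 0.18. Of 10 RGS genes, *Rgs2* among them, 1 was higher and 2 were lower at that p. *Rgs5*, a pericyte gene, stood at 71.3 ± 7.30 CPM in ethanol and 89.2 ± 15.1 in saline (SD, n = 5 each; log2 fold change -0.32 ± 0.11, SE, edgeR FDR = 0.332), *Rgs16* was at -0.54 ± 0.24 and *Rgs3* at 0.28 ± 0.13 (log2 ± SE). The 8 smooth muscle and pericyte markers, *Rgs5* included, summed to 356 to 458 CPM in ethanol libraries and 347 to 489 CPM in saline libraries, with 6 positive and 2 negative log2 fold changes.

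The 20 PGC-1 family and partner genes, *Ppargc1a* and *Ppargc1b* among them, split into 10 positive and 10 negative log2 fold changes (median 0.0024), and 0 were at an unadjusted p under 0.05. *Mef2a* was at -0.19 ± 0.11 and *Gabpb1* at -0.12 ± 0.09, and *Esrra*, the estrogen-related receptor gene that PGC-1 alpha acts through, at 0.08 ± 0.10 (log2 ± SE). The 20 PGC-1 target genes of muscle also split 10 and 10 (median 0.0093), with 1 lower at that p. That gene was *Ccbl2* (*Kyat3*), a kynurenine aminotransferase, at 11.8 ± 1.5 CPM in ethanol and 13.9 ± 0.85 in saline (SD, n = 5 each; log2 fold change -0.24 ± 0.10, SE, edgeR FDR = 0.359). *Pdk4*, the kinase that holds back pyruvate oxidation in fasting, was at -0.26 ± 0.16 and citrate synthase (*Cs*) at 0.02 ± 0.07 (log2 ± SE). *Cpt1b*, which carries fatty acids into mitochondria, was given only 155 counts over the 10 libraries. That came to 0.43 ± 0.05 CPM in ethanol and 0.53 ± 0.16 CPM in saline (SD, n = 5 each). The comparison gave -0.32 ± 0.26 (log2 ± SE) for this gene. Of the 20 target genes *Cpt1b* had the lowest level in both groups, with *Ccbl2* the next lowest. How reads were counted is not given, and whether so few counts reflect the level of *Cpt1b* in muscle was not tested.

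Among 13 genes of DOC2 proteins and GLUT4 exocytosis, *Doc2b* included, 2 were higher and 1 was lower at an unadjusted p under 0.05. *Doc2g*, a paralogue of *Doc2b* at a low level, stood at 1.5 ± 0.19 CPM in ethanol and 1.10 ± 0.15 in saline (SD, n = 5 each; log2 fold change 0.45 ± 0.17, SE, edgeR FDR = 0.341). The vesicle SNARE gene *Vamp2* stood at 56.5 ± 4.36 and its plasma membrane partner *Snap23* at 33.2 ± 2.34 CPM in ethanol, against 49.7 ± 3.18 and 38.0 ± 2.18 CPM in saline (log2 fold changes 0.19 ± 0.07 and -0.19 ± 0.07, SE, edgeR FDR = 0.364 and 0.341). *Slc2a4*, the gene of GLUT4 itself, was at -0.04 ± 0.09 (log2 ± SE).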

How the data were processed

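The deposited data were 1 table of raw counts, whole numbers by gene symbol, for the 10 libraries. Poly(A) RNA was sequenced as single-end reads of 100 bases, per the labels' protocols, and TopHat2, DESeq2 1.6.3 and mm10 are named with no role, per the submitters' processing notes. How reads were counted, with which annotation and strand, is not given in the sources used here. In 27 rows a date stands in place of the symbol, and these were kept as unnamed features (0.0935 to 0.103% of counts).

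Counts were used as deposited, kept by edgeR's filterByExpr (minimum count 10, minimum total 15) and TMM-scaled. Groups were compared by quasi-likelihood in edgeR 4.0.16 (glmQLFTest, robust dispersions), adjusted by Benjamini-Hochberg over all 13180 genes at 0.05. The standard error is the log2 fold change over the square root of F. Alternatives used DESeq2 1.42.0, limma 3.58.1 and sva 3.50.0 in R 4.3.3. Log2 CPM has a prior count of 2. Pairs used 99999 permutations.

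Named genes were the 9, the 3 genes of each pathway list with the smallest p, and the 3 most correlated genes of each of the 9, of which the closest are given. A gene that the rule names is not reported here. Each library is 1 mouse, so the p-values of the group comparison weigh the difference between groups against the spread between mice. *Creb1*, *Esrra*, *Cs*, *Slc2a4*, *Nr4a1*, *Nr4a3* and *Per1* were added after their values were seen. The genes and lists were chosen with earlier results of these data known. Coordinates and exon lengths are from GENCODE M21 (GRCm38), which may differ from the authors' annotation. The procedure was tested on simulated data.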

Additional observations from a re-analysis of the deposited data

Results flagged for a closer look

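A library far from the others of its group was looked for in 74 groups of 5, by a gap to the next library above 0.71 of the group's range. The groups were each of the 9 genes and each gene named from the pathway lists, in each treatment group. For independent, normally distributed values chance gives such a gap in about 5% of groups, and 5 were found. CPM values need not be normal and some of these genes are correlated, so that rate is only a guide. The share of all tested genes for which saline 36 stands apart by this rule was not computed. Saline 36 stood apart in the saline group for 3 of the 9 genes: *Rgs2* at 86.2 CPM with the next saline library at 24, *Crtc2* at 37.0 CPM with the next at 29.2, and *Doc2b* at 38.1 CPM with the next at 12.0. Ethanol 60 stood apart in the ethanol group for *Adrb3*, at 4.07 CPM with the next at 1.02, and for *Prkar2b*, at 16.7 CPM with the next at 7.20.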

How the results depend on the processing

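Of 198 values of the 9 genes under other settings, 192 kept their direction, 6 reversed and 0 passed FDR 0.05 (lowest 0.284). With 1 library left out at a time, the log2 fold change of *Ppargc1a* ran from -0.041 to 0.211, that of *Pde4b* from -0.21 to 0.161, and that of *Crtc2* from -0.14 to 0.00604. *Pde4b* was at -0.138 without saline 36 and ethanol 51 (a choice made after the data were seen), and *Crtc2* at 0.0278 without saline 36 and ethanol 60. *Adrb3* was at -0.0893 with 1 surrogate variable. DESeq2 called 55 genes at an adjusted p under 0.05, where edgeR called 0 (0 to 1 with a library left out, the 1 without ethanol 57 or saline 34). Genes at an unadjusted p under 0.05 numbered 1599, or 952 with 1 surrogate variable. Of the 9 genes, 0 were at that p, against 1 in DESeq2 (1777 of all genes), 2 without robust dispersions (1656 of all genes) and 0 to 2 with a library left out (1083 to 1916 of all genes). The filter of at least 5 CPM left too few adrenergic receptor genes for a median. The cause of the other shifts was not tested. No paired analysis was possible because no mouse number occurs in both groups. Depth was lower throughout the ethanol group, and the fold changes of the 9 genes kept their signs after thinning to the smallest total.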

Other observations

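The CPM of *Ppargc1a* over that of *Ppargc1b*, with no correction for length, was 2.61, 2.13, 3.08, 2.60 and 2.53 in ethanol 51, 57, 59, 60 and 62, against 3.52, 1.94, 9.33, 3.74 and 2.58 in saline 32, 34, 36, 38 and 39. Saline 36 stood alone, with the lowest *Ppargc1b* and the third highest *Ppargc1a* of the 10 libraries. The CPM of *Pde4b* over that of *Pde4d* was 0.664, 0.242, 0.278, 0.424 and 0.41 in ethanol 51, 57, 59, 60 and 62, against 0.447, 0.385, 0.348, 0.266 and 0.279 in saline 32, 34, 36, 38 and 39. Ethanol 51 was the highest for this ratio, and the other 9 libraries of both groups lay over each other.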
